A study of Mus musculus with 12 samples.

Results

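This account concerns how AMN107 (nilotinib, an inhibitor of the ABL kinases) and interferon-gamma (IFNg) acted together on gene expression in mouse embryonic fibroblasts. The 8 arrays were chosen by their labels, 2 for each of 4 groups, out of 12 arrays in 6 groups. The AMN107-IFNg cells received AMN107 and then IFNg for 6 h, the AMN107 cells AMN107 and no interferon, the IFNg cells IFNg for 6 h without AMN107, and the DMSO cells neither agent. The arrays left out carried cells given interferon-alpha (IFNa) with or without AMN107. The labels name no mouse strain, passage, AMN107 dose or AMN107 duration, and they describe the replicates as biological without saying whether cells came from separate embryos, so p-values measure only the spread between these arrays.

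IFNg binds a receptor that activates the kinases Jak1 and Jak2. Genes that respond directly carry gamma-activated sites (GAS), and the Irf transcription factors made early in the response bind interferon-stimulated response elements (ISRE), which type I interferons also act through. In fibroblasts the induced genes include GTPases that attack the vacuoles of intracellular microbes, the machinery that loads peptides on MHC class I, chemokines and antiviral proteins. A gene that is already high with AMN107 alone can reach the same final level and yet show a smaller fold response. The difference between responses was therefore separated into the effect of AMN107 in cells without IFNg and its effect in cells with IFNg.

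The measure was the interaction: the log2 response to IFNg with AMN107 (AMN107-IFNg minus AMN107) less the log2 response without it (IFNg minus DMSO). A positive interaction means a larger log2 response with AMN107 and a negative one a smaller response. The same number is the end level effect (AMN107-IFNg minus IFNg) less the baseline effect (AMN107 minus DMSO). All log2 values are of probe set signal plus 8.75, tested with limma on 12071 genes, and a gene was called at a Benjamini-Hochberg adjusted p under 0.05. Signals are in the arrays' own units and have a median of 21.3 to 22.8 per array, so a signal near or under that median is dim.

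The 8 arrays fell into their labelled groups: the correlation across genes was 0.997 to 0.998 within groups and 0.959 to 0.991 between them. The DMSO arrays lay farthest from the AMN107-IFNg arrays, and they also differed from the rest in control probe sets. The 5'/3' signal ratio of the transferrin receptor control was 0.907 and 1.09 on the AMN107-IFNg arrays, 0.996 and 1.07 on the AMN107 arrays, 0.792 and 0.735 on the IFNg arrays, against 0.275 and 0.267 on the DMSO arrays. For DapX, a poly-A RNA control of the array, that ratio was 0.0979 and 0.0843, 0.110 and 0.134, and 0.0762 and 0.0888 in the first 3 of these groups, against 0.0430 and 0.0425 on the DMSO arrays. The LysX control gave 41.4 and 40 on the AMN107-IFNg arrays, 38.9 and 37.6 on the AMN107 arrays, 40.6 and 36.1 on the IFNg arrays, against 59.6 and 66.2 on the DMSO arrays. The response without AMN107, the baseline effect and the interaction all use the DMSO arrays, while the response with AMN107 and the end level effect do not. Both DMSO arrays shared these control values, so no baseline effect, response without AMN107 or interaction could be given without them, and the difference between arrays cannot be told apart from the difference between groups. Of 11 fibroblast markers, 7 lay above the array median on all 8 arrays, among them Vim, Col1a2 and S100a4, while Thy1, Lum and Fap lay below it on all 8. Their summed signal was 6607 to 6717 on the AMN107-IFNg arrays, 6607 to 6664 on the AMN107 arrays, 10192 to 10475 on the IFNg arrays, against 9181 to 9287 on the DMSO arrays. Of the 12 leukocyte markers on the array, 4 lay above the median on all 8 arrays, among them Cd14 (114 to 172) and Csf1r (41.0 to 60.5), and 5 below it, among them Ptprc (3.88 to 5.16). Of 8 endothelial markers, 2 lay above it (Egfl7, 99.2 to 145, and Kdr, 34.1 to 55.8) and 6 below, among them Cdh5 (11.5 to 16.9). Of 8 epithelial markers, 1 lay above it (Epcam, 50.7 to 89.0) and 4 below, among them Cdh1 (2.69 to 3.43). The leukocyte markers summed to 314 to 336 on the AMN107-IFNg arrays, 376 to 385 on the AMN107 arrays, 390.1 to 402 on the IFNg arrays, against 399 to 403 on the DMSO arrays. The 8 endothelial markers summed to 185 to 247 and the 8 epithelial markers to 141 to 220 over the 8 arrays. In such bulk samples fewer cells of a type and less RNA per cell cannot be told apart, and the part of these sums in the results was not tested.

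Interferon-inducible GTPases led the genes with negative interactions. Gbp2, a guanylate-binding protein, gave signals of 2291 and 2452 with AMN107-IFNg, 197 and 289 with AMN107, 2224 and 2286 with IFNg and 22.5 and 23.6 with DMSO. The IFNg-treated arrays lay close together with and without AMN107, while without IFNg the AMN107 arrays stood well above the DMSO arrays. The log2 response was 3.27 with AMN107 and 6.15 without, an interaction of -2.89 (SE 0.16, limma adjusted p = 3.19e-08). The baseline effect was 2.96 and the end level effect 0.07, with a 95% interval of -0.18 to 0.32. On the linear scale IFNg added a signal of 2129 with AMN107 and 2232 without. A second Gbp2 probe set gave an interaction of -2.54.

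Igtp, an immunity-related GTPase that guards the cell's own membranes, had the same form. It measured 3294 and 3194 with AMN107-IFNg, 426 and 524 with AMN107, 3399 and 3238 with IFNg and 83.3 and 78.0 with DMSO, so the IFNg-treated groups overlapped and the groups without IFNg did not. Its interaction was -2.46 (SE 0.11, limma adjusted p = 2.68e-09), with a baseline effect of 2.43 and an end level effect of -0.03 (95% interval -0.20 to 0.14).

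**Figure D1:**
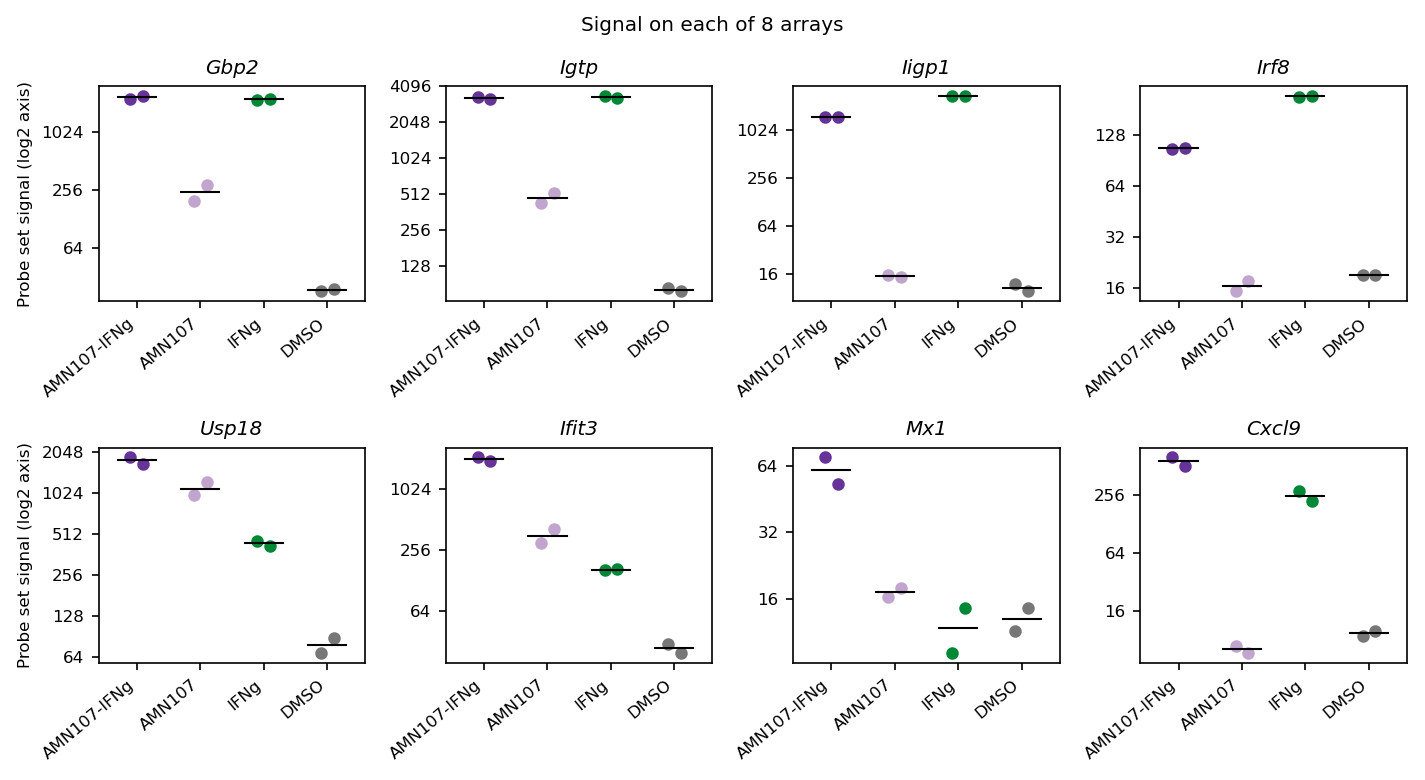
Probe set signal (log2 axis) of 8 genes on each array, with 2 points per group and a black line at the group mean. Gbp2 and Igtp reached close levels with IFNg whether or not AMN107 was given, Iigp1 and Irf8 ended lower with AMN107, and Cxcl9 and Mx1 ended higher.

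All 10 tested GTPases of a list of 18 were called lower in the interaction, where 9.32% of all 12071 genes were called lower and 3.63% higher. Their median interaction was -1.94, against 0.02 over all genes. A dim member could enter the test through its IFNg arrays, and the list was written with earlier results of these data known. The baseline effect was called higher in 9 of the 10 (32.3% of all genes) and the end level effect higher in 1 (26%) and lower in 4 (14.8%). Over all genes a baseline effect was called for 55.3% and an end level effect for 40.8%. Gbp7, Irgm2 and Gbp3 had interactions of -2.46, -2.22 and -2.07. Their end level effects were -0.23, which passed the test, and -0.05 and 0.24, which did not. Gbp2b, outside the list, had an interaction of -2.24 and an end level effect of 0.22 (adjusted p = 0.0934). For Gbp2b and for Irgm1, whose interaction was -1.82, IFNg added more linear signal with AMN107 (2125 and 1625) than without (1936 and 1487), so their direction turned with the scale.

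Iigp1, an effector GTPase that coats parasite vacuoles, had a lower end level with AMN107. Its signals were 1485 and 1466 with AMN107-IFNg, 15.5 and 14.8 with AMN107, 2712 and 2670.1 with IFNg and 12 and 9.78 with DMSO. Without IFNg both groups were dim, and with IFNg both AMN107 arrays lay below both arrays without AMN107. The interaction was -1.15 (SE 0.11, limma adjusted p = 4.75e-06), made of an end level effect of -0.86 (adjusted p = 2.90e-07) and a baseline effect of 0.28. Gbp6 and Gm4951 also ended lower with AMN107, with end level effects of -0.57 and -0.93 and baseline effects of 0.20 and -0.19 (the second not called).

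The 12 genes with the most negative interaction were set beside the promoter windows of RefSeq (assembly GRCm38.p6, from 250 bases before to 50 after the start site), to show which interferon elements the moved genes carry. The ISRE core was taken as GAAANNGAAA and the GAS core as TTCNNNGAA, on either strand. Of the 10 genes with a window, 7 (70%) held an ISRE core and 4 (40%) a GAS core. All 7 with an ISRE core were interferon-inducible GTPases. Among other named genes, Mndal and Socs1, called lower, held an ISRE core. So did Ifit3, Cxcl10, B2m and Stat2, whose tested probe sets were not called. No share was taken over other IFNg-induced genes, so these counts do not link the core to a negative interaction. Over all 27025 genes of the table the shares were 3.99% and 9.55%. Among the 12 most positive genes, 8 had a window, of which 1 (12.5%) held an ISRE core and 1 a GAS core. The sequences of 4 promoters are given 5' to 3' on the gene's strand, with capitals marking matches to either core or its reverse complement. Gbp2 (chr3:142620413-142620712, plus strand) and Igtp (chr11:58199306-58199605, plus strand) stand for the GTPases, with an ISRE core that starts 59 bases before the start site in Gbp2, and in Igtp a GAS core 45 and an ISRE core 34 bases before it. Srp72 (chr5:76974451-76974750, plus strand) is another of the 12 most negative genes and Cxcl9 (chr5:92328030-92328329, minus strand) one of the most positive, and neither window held a match.
Gbp2: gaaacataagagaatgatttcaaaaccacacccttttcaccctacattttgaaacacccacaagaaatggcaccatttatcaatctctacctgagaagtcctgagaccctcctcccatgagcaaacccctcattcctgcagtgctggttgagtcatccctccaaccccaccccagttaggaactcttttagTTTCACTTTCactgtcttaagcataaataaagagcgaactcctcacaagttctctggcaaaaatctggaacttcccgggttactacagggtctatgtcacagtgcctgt
Igtp: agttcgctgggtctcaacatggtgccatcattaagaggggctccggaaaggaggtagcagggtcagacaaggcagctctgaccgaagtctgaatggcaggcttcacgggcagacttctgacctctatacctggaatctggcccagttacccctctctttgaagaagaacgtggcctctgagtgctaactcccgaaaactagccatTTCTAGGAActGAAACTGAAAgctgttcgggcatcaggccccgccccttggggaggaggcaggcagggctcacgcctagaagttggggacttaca
Srp72: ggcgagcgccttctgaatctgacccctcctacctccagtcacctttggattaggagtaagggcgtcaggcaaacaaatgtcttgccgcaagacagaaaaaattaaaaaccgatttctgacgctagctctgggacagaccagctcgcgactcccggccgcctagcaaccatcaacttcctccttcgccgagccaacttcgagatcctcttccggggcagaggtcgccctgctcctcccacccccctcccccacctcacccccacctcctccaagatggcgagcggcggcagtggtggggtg
Cxcl9: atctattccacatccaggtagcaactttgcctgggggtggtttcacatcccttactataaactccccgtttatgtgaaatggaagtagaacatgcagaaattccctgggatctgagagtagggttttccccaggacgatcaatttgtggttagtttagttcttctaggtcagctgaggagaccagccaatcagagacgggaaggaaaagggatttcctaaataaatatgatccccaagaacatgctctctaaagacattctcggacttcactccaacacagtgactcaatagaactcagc

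Genes of MHC class I presentation also had mostly negative interactions. Of 13 tested members of 22, 8 (61.5%) were called lower and 0 higher, against 9.32% and 3.63% of all genes. The median of the 13 was -0.47, and all 8 called lower also had less signal added with AMN107 on the linear scale. Psmb9, a subunit of the immunoproteasome that cuts peptides for MHC class I, gave signals of 419 and 366 with AMN107-IFNg, 65.5 and 99.5 with AMN107, 461 and 373 with IFNg and 35.4 and 37.8 with DMSO. The 2 IFNg-treated groups overlapped and the AMN107 arrays lay above the DMSO arrays. Its interaction was -1.06 (SE 0.19, limma adjusted p = 0.0017) and its end level effect -0.08 (95% interval -0.37 to 0.21). Tap1, a chain of the peptide transporter, had an interaction of -0.63 with an end level effect of 0.00 (95% interval -0.19 to 0.20) and a baseline effect of 0.63. Tap2, its partner chain, had an interaction of -0.56 that came with a lower end level (-0.68) and a baseline effect of -0.12. With all 12 arrays in the fit the interactions of Psmb9 and Tap1 were no longer called (adjusted p = 0.101 and 0.117). That fit takes in IFNa replicate 2, whose GAPDH control had a 5'/3' ratio of 0.0252, against 1.07 to 1.16 on the other 11 arrays, and whose actin ratio was 0.212, against 0.676 to 0.830.

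The class I heavy chains H2-K1 and H2-D1 were bright in every group. H2-K1 gave 4039 and 3904 with AMN107-IFNg, 3456 and 3566 with AMN107, 3415 and 3090.4 with IFNg and 1551 and 1691 with DMSO, and the DMSO arrays lay far below the others. The log2 response was 0.18 with AMN107 (adjusted p = 0.0681) and 1.0 without, and the interaction was -0.82 (SE 0.08, limma adjusted p = 6.29e-06). H2-D1 had an interaction of -0.69. The heavy chains are near-identical paralogs whose probe sets could share transcripts. Nlrc5, the activator of class I genes, responded by 2.83 with AMN107 and 2.88 without, and its interaction of -0.05 was not called (95% interval -0.31 to 0.21). B2m, the light chain, gave an interaction of -0.09 (95% interval -0.22 to 0.04), which was not called either.

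Among antiviral effectors the interaction went both ways. Of 33 tested members of 39, 10 (30.3%) were called lower and 6 (18.2%) higher, against 9.32% and 3.63% of all genes. The median of the 33 was -0.09. Xaf1, an inducer of cell death, gave signals of 2660.0 and 2736 with AMN107-IFNg, 1319 and 1550.4 with AMN107, 1737 and 1736 with IFNg and 287 and 286 with DMSO, and its interaction was -1.65 (SE 0.09, limma adjusted p = 3.19e-08; another probe set gave -2.15). Its baseline effect was 2.28 and its end level effect 0.63. Parp12, Oasl2, Parp9 and Eif2ak2, the kinase that stops translation on viral RNA, had interactions of -1.52, -1.40, -1.31 and -1.29 with baseline effects of 2.46, 2.38, 1.80 and 1.97. IFNg added less linear signal with AMN107 in 5 of the 10 lower members and more in the other 5.

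Usp18, which strips ISG15 from proteins and dampens the type I interferon receptor, shows why the scale matters. Its signals were 1884 and 1688 with AMN107-IFNg, 986 and 1232 with AMN107, 459 and 419.6 with IFNg and 68.6 and 88.5 with DMSO. The AMN107 arrays without IFNg thus lay above the IFNg arrays without AMN107. The log2 response was 0.69 with AMN107 and 2.37 without (interaction -1.68, SE 0.15, limma adjusted p = 4.41e-06), yet the added signal was 677 with AMN107 and 361 without. The end level effect was 2.0. Ifit3, a protein of the complex that binds viral RNA, measured 2125 and 1953 with AMN107-IFNg, 297 and 411 with AMN107, 162 and 166 with IFNg and 30.1 and 24.5 with DMSO and had a baseline effect of 3.32 and an end level effect of 3.57. Its interaction of 0.25 was not called (95% interval -0.10 to 0.60).

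The 6 effectors with a larger log2 response under AMN107 were Ifi44l, Mx1, Phf11d, Ifit2, Mx2 and Ifit1. Mx1, a dynamin-like antiviral GTPase, measured 70.3 and 53.4 with AMN107-IFNg, 16.3 and 17.9 with AMN107, 9.06 and 14.5 with IFNg and 11.4 and 14.5 with DMSO, and only the AMN107-IFNg arrays lay above the array medians. Its log2 response was 1.44 with AMN107 and -0.09 without (adjusted p = 0.648), an interaction of 1.53 (SE 0.19, limma adjusted p = 5.63e-05). Ifi44l gave 82.5 and 57.3 on the AMN107-IFNg arrays and at most 13.2 on the other arrays, with an interaction of 1.63. Mx1 and Ifi44l passed the filter on dim signals only through the AMN107-IFNg arrays, the group where they were highest. Their place among the 6 is thus tied to that filter. Ifit2, a partner of Ifit3, gave 884 and 876 with AMN107-IFNg, 198 and 230.0 with AMN107, 217 and 226 with IFNg and 108 and 95.6 with DMSO, with a response of 2.0 with AMN107 and 1.06 without. Its interaction of 0.94 (adjusted p = 5.38e-05) was not called with all 12 arrays (0.208). Phf11d had an interaction of 1.47, with signals on the AMN107-IFNg arrays that differed among themselves (234 and 392), and an adjusted p of 0.0546 with all 12 arrays.

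**Figure D2:**
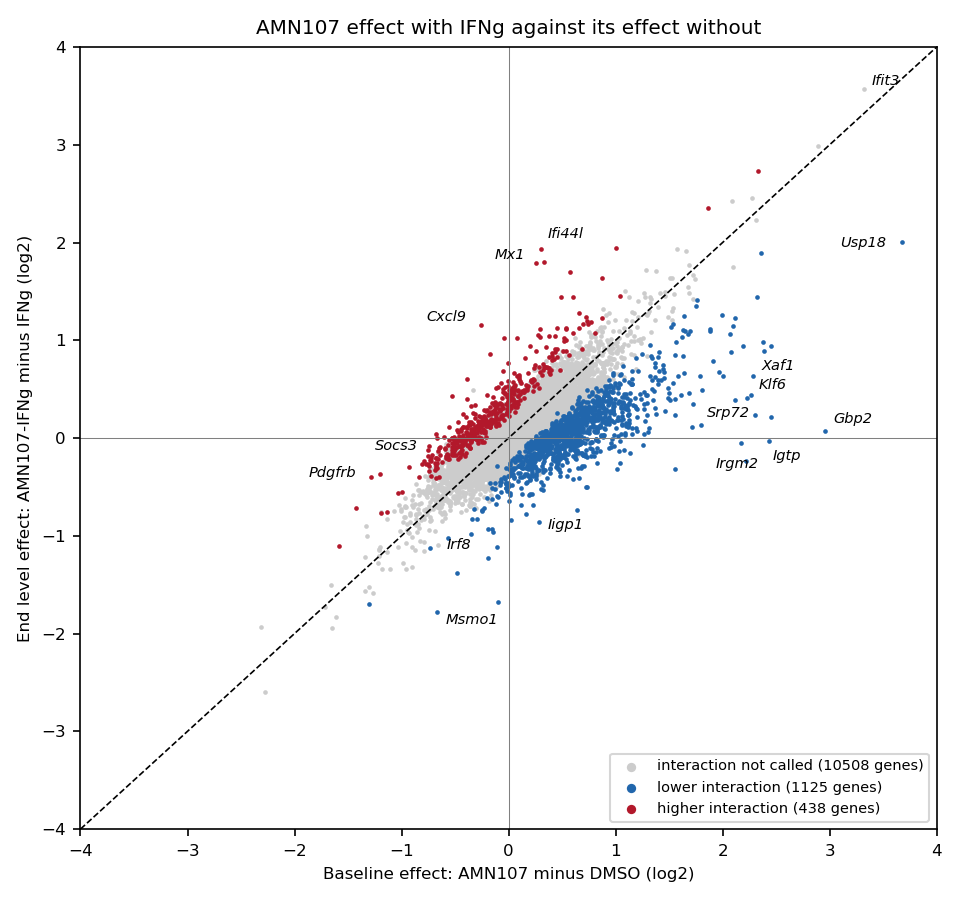
Each point is 1 of 12071 genes, with the baseline effect of AMN107 on the x axis and its end level effect on the y axis (both log2); blue and red mark genes called lower (1125) and higher (438) in the interaction, and the dashed line marks equal effects. Gbp2, Igtp and Irgm2 lie far to the right near 0 on the y axis, and Cxcl9, Mx1 and Ifi44l lie above the line near 0 on the x axis.

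Of 17 tested receptors, kinases and transcription factors of the pathway, from a list of 18, 6 (35.3%) were called lower and 2 (11.8%) higher. Their median was -0.20. Over all genes 9.32% were called lower and 3.63% higher, and 72% of all calls were lower. Stat2 responded by 1.32 with AMN107 and 1.39 without, an interaction of -0.06 (95% interval -0.45 to 0.32) that was not called. Its other probe set gave -0.75, which was called (adjusted p = 0.0128), so no direction is given for it. Irf9, the DNA-binding subunit of the type I complex, gave 383 and 377 with AMN107-IFNg, 286 and 312 with AMN107, 276 and 253 with IFNg and 95.7 and 106 with DMSO. The DMSO arrays lay far below the others. Its interaction was -0.98 (SE 0.11, limma adjusted p = 2.33e-05; 0.107 with all 12 arrays) with a baseline effect of 1.49 and an end level effect of 0.51. Irf7, the amplifier of type I interferon, had an interaction of -0.52, although IFNg added more linear signal with AMN107 (335) than without (223), and the call was lost without DMSO replicate 1, AMN107 replicate 2, AMN107-IFNg replicate 2 or IFNg replicate 1 (adjusted p = 0.104, 0.137, 0.132 and 0.0665).

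Irf8 and Irf1, factors that IFNg induces directly, ended lower with AMN107. Irf8 gave 105 and 107 with AMN107-IFNg, 15.3 and 17.5 with AMN107, 212 and 216 with IFNg and 19.0 and 19.2 with DMSO. With IFNg both AMN107 arrays lay below both arrays without AMN107, and without IFNg all 4 were dim. The interaction was -0.81 (SE 0.12, limma adjusted p = 1.99e-04), the end level effect -0.96 (adjusted p = 2.39e-07) and the baseline effect -0.15 (95% interval -0.32 to 0.02). A second Irf8 probe set gave an interaction of -0.51. Irf1 measured 1288 and 1255 with AMN107-IFNg, 222 and 213 with AMN107, 1610.0 and 1478 with IFNg and 184 and 218 with DMSO, with an end level effect of -0.28 and an interaction of -0.39 (adjusted p = 0.0256). That call was lost in 6 of the 8 fits without 1 array, without AMN107-IFNg replicate 1 or 2, AMN107 replicate 1 or 2, IFNg replicate 1 or DMSO replicate 1 (adjusted p from 0.053 to 0.114). The kinase Jak1 had an interaction of -0.46 and Jak2 one of 0.11, which was not called, while the receptor chains Ifngr1 and Ifngr2 gave -0.40 and -0.42 (adjusted p = 0.0348 and 0.051). Other Jak1 probe sets gave 0.13 and -1.01, neither called, and the Jak1 call was lost without AMN107-IFNg replicate 2 or AMN107 replicate 2 (adjusted p = 0.0523 and 0.0521). The Ifngr1 call was lost under 11 settings, among them the same 6 fits without 1 array as for Irf1 (adjusted p from 0.0505 to 0.145).

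The feedback inhibitors were split, with 2 of 10 (20%) lower and 3 (30%) higher (median 0.12), against 9.32% and 3.63% of all genes. Socs1, which blocks Jak kinases, gave 147 and 144 with AMN107-IFNg, 74.6 and 72.5 with AMN107, 129 and 122 with IFNg and 33.0 and 43.9 with DMSO, an interaction of -0.61 and a baseline effect of 0.81. Socs3, which restrains signalling through Stat3, gave 247 and 286 with AMN107-IFNg, 55.3 and 56.7 with AMN107, 257 and 309 with IFNg and 98.8 and 99.9 with DMSO, an interaction of 0.66 and a baseline effect of -0.74. For both genes the IFNg-treated groups lay close together, with end level effects of 0.20 and -0.08 that were not called, and the AMN107 arrays lay above the DMSO arrays for Socs1 and below them for Socs3. Neither interaction was called with all 12 arrays (adjusted p = 0.34 and 0.158). Another Socs3 probe set gave 0.18, which was not called. Ptpn11, a phosphatase of receptor signalling, had an interaction of 0.53 on its brightest probe set and of -1.05 on another, and the mean over its probe sets gave -0.26, so no direction is given for it.

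The chemokine Cxcl9, the checkpoint ligand Cd274 and the death genes Casp4 and Daxx had positive interactions. Cxcl9, which draws T cells through Cxcr3, gave 634 and 517 with AMN107-IFNg, 6.99 and 5.87 with AMN107, 283 and 224 with IFNg and 8.88 and 9.93 with DMSO. Both groups without IFNg were dim, and with IFNg both AMN107 arrays lay above both arrays without AMN107. The log2 response was 5.26 with AMN107 and 3.85 without, an interaction of 1.42 (SE 0.16, limma adjusted p = 2.35e-05). The end level effect was 1.16 and the baseline effect -0.26 (95% interval -0.50 to -0.02, not called). Because the level without IFNg was dim, the size moved with the pseudocount, to 1.26 with a larger one and 1.74 with none. Cxcl10, a ligand of the same receptor, responded by 1.56 with AMN107 and 1.71 without, and its interaction of -0.15 was not called. Of 19 tested chemokines and cytokines, 2 were lower (Cxcl1 and Csf1) and 2 higher (Cxcl9 and Ccl5). Each direction held 10.5% of the list, against 9.32% lower and 3.63% higher over all genes. Ccl5 had a response of 0.02 with AMN107 and -0.35 without. The Cxcl1 call was lost under 13 settings, among them quantile normalization, the replicate block and the fits without AMN107-IFNg replicate 1 or 2, AMN107 replicate 2, IFNg replicate 1 or DMSO replicate 2 (adjusted p from 0.072 to 0.209 in these 5).

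Casp4, the inflammatory caspase that senses cytosolic lipopolysaccharide, gave 141 and 138 with AMN107-IFNg, 16.9 and 17.5 with AMN107, 65.2 and 81.5 with IFNg and 21.2 and 19.7 with DMSO. Its interaction was 1.03 (SE 0.14, limma adjusted p = 1.10e-04), with an end level effect of 0.86 and a baseline effect of -0.17 that was not called. The AMN107-IFNg arrays lay above all others. Cd274, the checkpoint ligand PD-L1, gave 214 and 199 with AMN107-IFNg, 27.0 and 29.3 with AMN107, 127 and 126 with IFNg and 30.3 and 23.7 with DMSO, with an interaction of 0.62 (SE 0.13, limma adjusted p = 0.00519; 0.0826 with all 12 arrays) and an end level effect of 0.67. Daxx, a histone chaperone linked to cell death, had an interaction of 0.95. Of 12 tested genes of death and checkpoint ligands, these 3 were called higher and Casp8, Mlkl and Ripk3 lower, the last 3 being parts of the necroptosis pathway (-0.39, -0.44 and -0.54). Each direction held 25% of the list, against 3.63% higher and 9.32% lower over all genes. Zbp1, which senses Z-form nucleic acids upstream of Ripk3, had an interaction of -1.0 with an end level effect of 0.02 (95% interval -0.17 to 0.22), while its other probe set gave 0.09 (adjusted p = 0.808). Cgas, the sensor of cytosolic DNA, had an interaction of 0.50, and its other probe set gave 0.17 (limma adjusted p = 0.372). Neither Zbp1 nor Cgas was called with all 12 arrays (adjusted p = 0.148 and 0.0944).

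Crem, a regulator that answers cyclic AMP, gave 119 and 111 with AMN107-IFNg, 26.0 and 23.3 with AMN107, 56.6 and 47.4 with IFNg and 21.9 and 30.0 with DMSO, with an interaction of 1.07 (adjusted p = 2.57e-04) and 0.78 on another probe set. Clec2d, the ligand of an inhibitory natural killer cell receptor, had one of 0.94. The predicted gene Gm11772 had one of 1.12. It gave 62.9 and 69.5 with AMN107-IFNg, and elsewhere only AMN107 replicate 2 (21.5) lay above its array median (21.3). Gm11772 thus passed the filter on dim signals only with the AMN107-IFNg arrays, where it was highest. Eppk1 and Marcks, an organiser of keratin and a membrane-bound substrate of protein kinase C, had interactions of 0.99 and 0.96, each with a baseline effect below 0 (-0.39 and -0.53) and an end level effect above it (0.60 and 0.43). None of the 6 other Marcks probe sets passed the test (0.07 to 0.45).

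**Figure D3:**
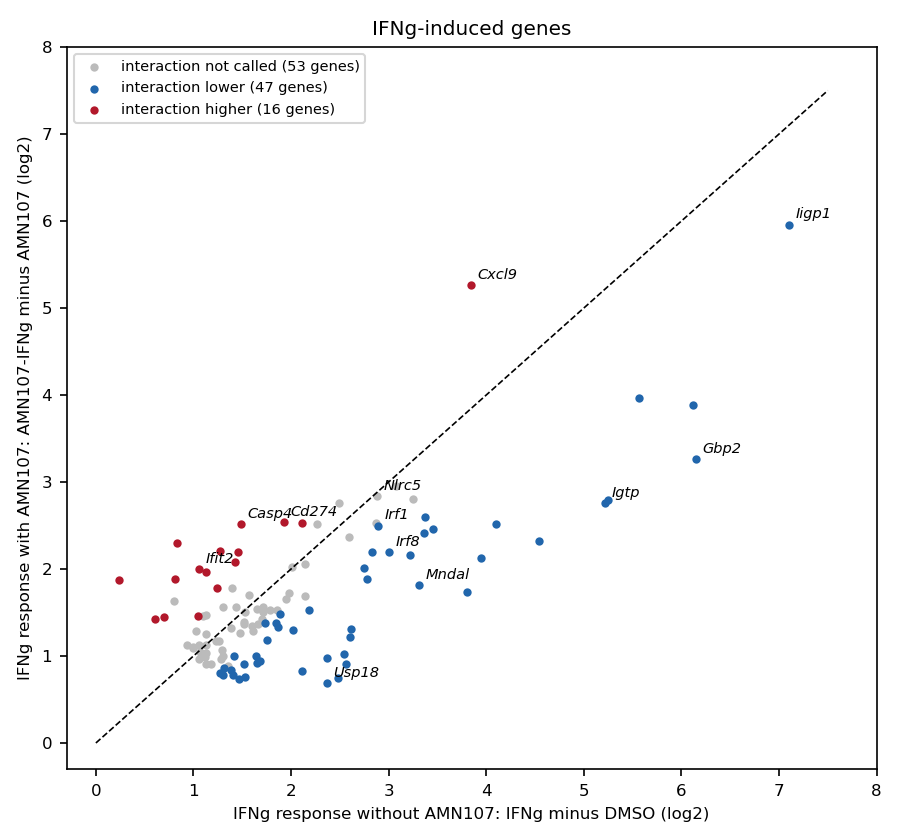
Log2 response to IFNg with AMN107 (y axis) against the response without (x axis) for 116 induced genes, with blue, red and grey for interactions called lower (47), higher (16) and not called (53); the dashed line marks equal responses. Gbp2 and Igtp lie far below the line and Cxcl9 above it.

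Over all IFNg-induced genes, taken as the 116 whose mean of both responses was called and at least 1 (0.961% of genes), 47 (40.5%) were lower in the interaction and 16 (13.8%) higher. Their median interaction was -0.27, against 0.02 over the other 11955 genes, of which 9.02% were called lower and 3.53% higher. The baseline effect of AMN107 was called higher in 80 of them and lower in 5, and the end level effect higher in 68 and lower in 14. Over all genes the baseline effect was called higher in 32.3% and lower in 22.9%. The end level effect was called higher in 26% and lower in 14.8% of all genes. Among the 47 lower genes, the linear signal that IFNg added was smaller with AMN107 in 28 and larger in 19. Over all 116 induced genes it was smaller with AMN107 in 44 and larger in 72. The direction of the set as a whole thus turned with the scale. The 3 effects share arrays, so these counts describe the genes and test nothing. Tubb3, a neuronal tubulin that IFNg induced here, responded by 2.81 with AMN107 and 3.25 without, and its interaction of -0.45 missed the threshold (adjusted p = 0.055).

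Across all genes limma called 1563 interactions (12.9%), 1125 lower and 438 higher. An absolute log2 of at least 1 was reached by 78 of them (0.646% of all genes), 71 lower (0.588%) and 7 higher (0.058%). The share called lower was 72%, and it was 47.6% with quantile normalization and 51.4% with arrays scaled to 1 trimmed mean. With all 12 arrays in the fit 127 were called, 110 lower and 17 higher, all among the 1563. Of the 1125 lower genes, 574 (51%) had a higher baseline with AMN107 and no called end level effect, 341 (30.3%) were higher at both, 101 (8.98%) had only a lower end level, 90 (8%) had a higher baseline and a lower end level, 14 were lower at both and 5 had neither effect called. Of the 438 higher genes, 178 (40.6%) had only a lower baseline, 123 (28.1%) only a higher end level, 77 (17.6%) were higher at both, 38 lower at both, 17 had a lower baseline and a higher end level and 5 had neither called.

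For most of these genes no response to IFNg was called in AMN107-treated cells. The response with AMN107 was called for 7.22% of all genes, higher for 586 (4.85%) and lower for 286 (2.37%). The response without it was called for 30.7%, higher for 1974 (16.4%) and lower for 1736 (14.4%). Sorted after their values were seen, 937 (83.3%) of the lower genes had a response called higher without AMN107 and not called with it, and 74 (6.58%) a response called higher in both. Over the 937 genes the median was 0.51 and 0.49 on the AMN107-IFNg arrays, 0.58 and 0.59 on the AMN107 arrays and 0.45 and 0.44 on the IFNg arrays, each relative to the DMSO mean (log2). The DMSO arrays thus lay below 3 groups that were close to each other. The rule that picked these genes put IFNg above DMSO and kept AMN107-IFNg near AMN107, so the selection set part of this pattern. The arrays outside this comparison that shared the low transferrin receptor ratio were the IFNa arrays (0.344 and 0.240), where the median was 0.19 and 0.48; the second is the array with the low GAPDH ratio. On the AMN107-IFNa arrays, with ratios of 0.886 and 1.31, it was 0.55 and 0.53. The part of this difference between arrays in the 937 genes was not tested. Where those genes had other probe sets, 175 of 842 (20.8%) were called in the same direction. For the 74 genes induced in both it was 23 of 52 (44.2%). Over all 12071 genes, 9.85% of the other probe sets were called in the direction in which the gene's brightest probe set lay.

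**Figure D4:**
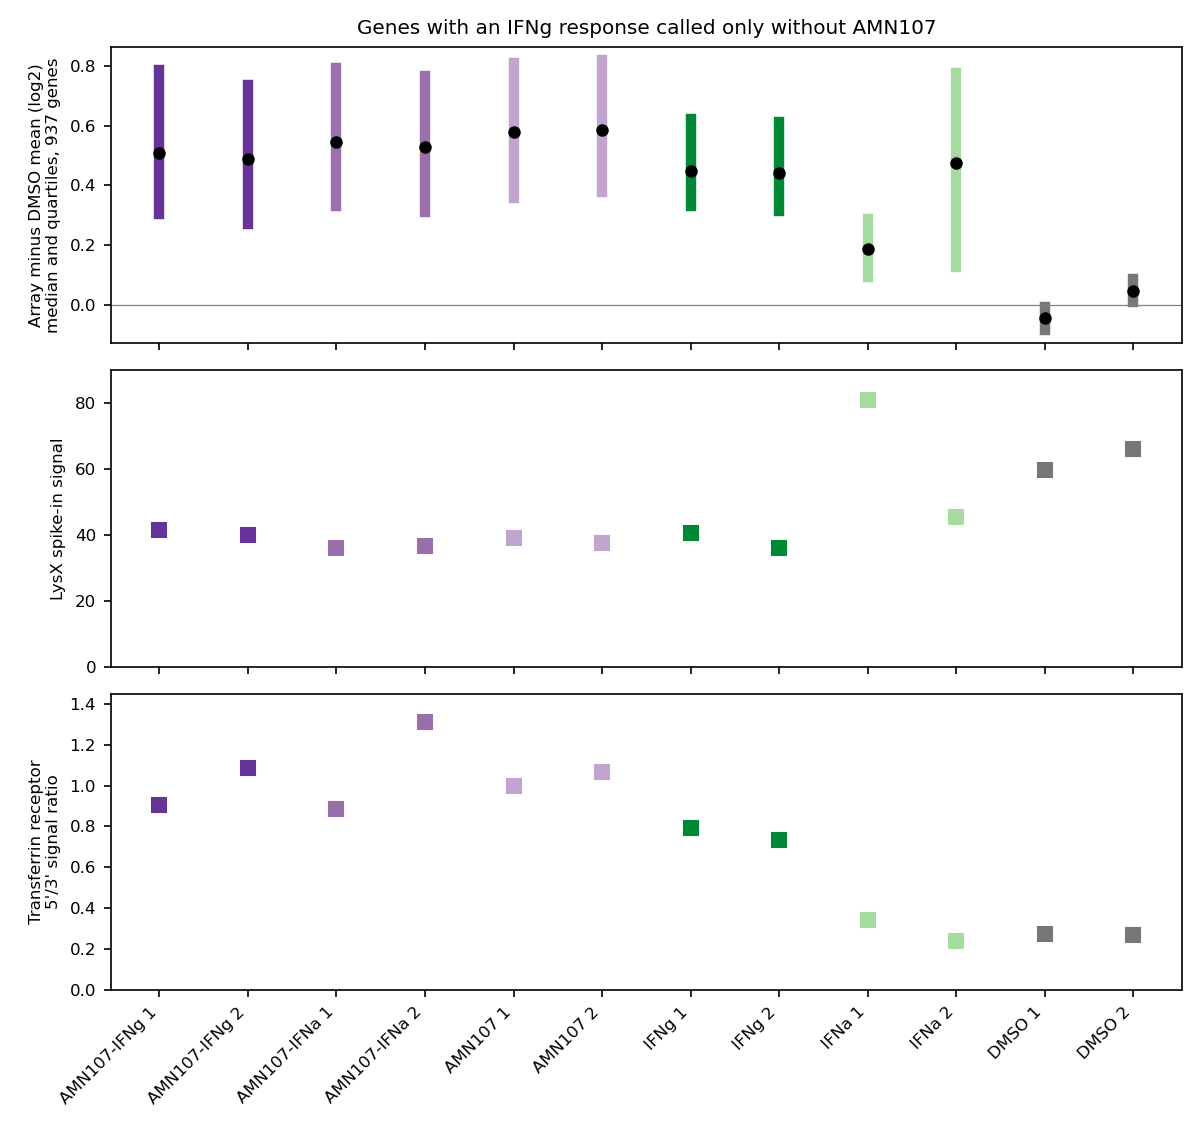
The top panel shows, for each of 12 arrays, the median (black) and quartiles (bar) over 937 genes of the log2 level minus the DMSO mean; the lower panels show the LysX control signal and the 5'/3' signal ratio of the transferrin receptor control. The DMSO arrays are lowest in the top panel, where the rule that picked the genes put IFNg above DMSO. The DMSO and IFNa arrays have the lowest ratios (0.240 to 0.344, against 0.735 to 1.31 on the others).

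Srp72, a subunit of the particle that targets secreted proteins to the endoplasmic reticulum, stood for these genes among the 12 most negative. It gave 1079 and 1060.2 with AMN107-IFNg, 1187 and 1200.3 with AMN107, 982 and 965 with IFNg and 309 and 366 with DMSO, and the DMSO arrays lay far below the others. Its interaction was -1.66 (SE 0.10, limma adjusted p = 4.71e-08; 0.158 with all 12 arrays), and its other probe set gave -0.06. Klf6, an early-response zinc finger factor, gave 761 and 777 with AMN107-IFNg, 743 and 741 with AMN107, 572 and 558 with IFNg and 120.3 and 181 with DMSO, with an interaction of -1.82 and of -1.64, -0.12 and -0.26 on other tested probe sets. Sntb2, a syntrophin of the dystrophin complex, had an interaction of -1.88 and of -0.62, -0.30 and -0.40 on others. Ifi202b, a DNA-binding protein of the p200 family, and its relative Mndal had interactions of -1.73 and -1.5, and both were called as induced with AMN107 too (0.75 and 1.81).

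In several lists outside the interferon pathway most calls were lower, as were 72% of the calls over all genes. That share was 47.6% with quantile normalization and 51.4% with arrays scaled to 1 trimmed mean. Of all genes tested, 9.32% were called lower and 3.63% higher. Of 23 tested genes of the ATF4 and unfolded protein response, 9 were lower and 0 higher (median -0.24). Hsp90b1, a chaperone of the endoplasmic reticulum, gave 1939 and 2140.5 with AMN107-IFNg, 2071 and 2207 with AMN107, 1759 and 1839.8 with IFNg and 925 and 835 with DMSO, with an interaction of -1.09 that was -0.10 on another probe set. Cth, an enzyme of cysteine synthesis, gave 1123 and 1069 with AMN107-IFNg, 1334 and 1312 with AMN107, 403 and 391 with IFNg and 254 and 261 with DMSO, with an interaction of -0.88 and an end level effect of 1.44. Of 20 immediate early and SRF target genes, 6 were lower and 1 higher (median -0.23), with Ankrd1, a target of the mechanical stress pathways, at -1.22 (-0.49 on another probe set) and Ier2 at -1.18. Lysosome and autophagy genes had 8 of 20 lower and 1 higher (median -0.20), among them the protective protein Ctsa at -0.81, the autophagy receptor Sqstm1 at -0.62 (0.10 on another probe set) and the proton pump subunit Atp6v1h at -0.71. Among genes for replication and mitosis 9 of 28 were lower and 0 higher (median -0.11), with the mitotic kinase Aurka at -1.02. In none of Hsp90b1, Ankrd1, Ier2, Ctsa, Atp6v1h, Sqstm1 and Aurka was the response with AMN107 called (adjusted p = 0.11 to 0.651), while all 7 were called higher without it. Cth, and Sesn2 and Cdc20 of the same lists, had a response with AMN107 that was called lower (-0.27, -0.48 and -0.31).

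In cholesterol synthesis AMN107 lowered both the baseline and the end level of most genes. Among the 25 sterol and lipid synthesis genes tested, 7 (28%) had a lower interaction and 0 a higher one (median -0.12), against 9.32% and 3.63% of all genes. The end level effect of AMN107 was called lower in 22 of the 25 (14.8% of all genes) and the baseline effect in 20 (22.9% of all genes). Msmo1, a demethylase of the late pathway, gave 362 and 353 with AMN107-IFNg, 426 and 471 with AMN107, 1289 and 1207 with IFNg and 729 and 701 with DMSO. The IFNg arrays without AMN107 were the highest, and the AMN107-IFNg arrays lay below all others. The log2 response was -0.32 with AMN107 (adjusted p = 0.00569) and 0.79 without, an interaction of -1.11 (SE 0.09, limma adjusted p = 2.01e-06; 0.096 with all 12 arrays). Mvd and Nsdhl, enzymes of the early and late pathway, had interactions of -1.04 and -0.90 with end level effects of -1.23 and -1.38. Neither was called with all 12 arrays (adjusted p = 0.132 and 0.0656). Other probe sets of Mvd and Msmo1 gave interactions of -0.48 and -0.32, which were not called.

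**Figure D5:**
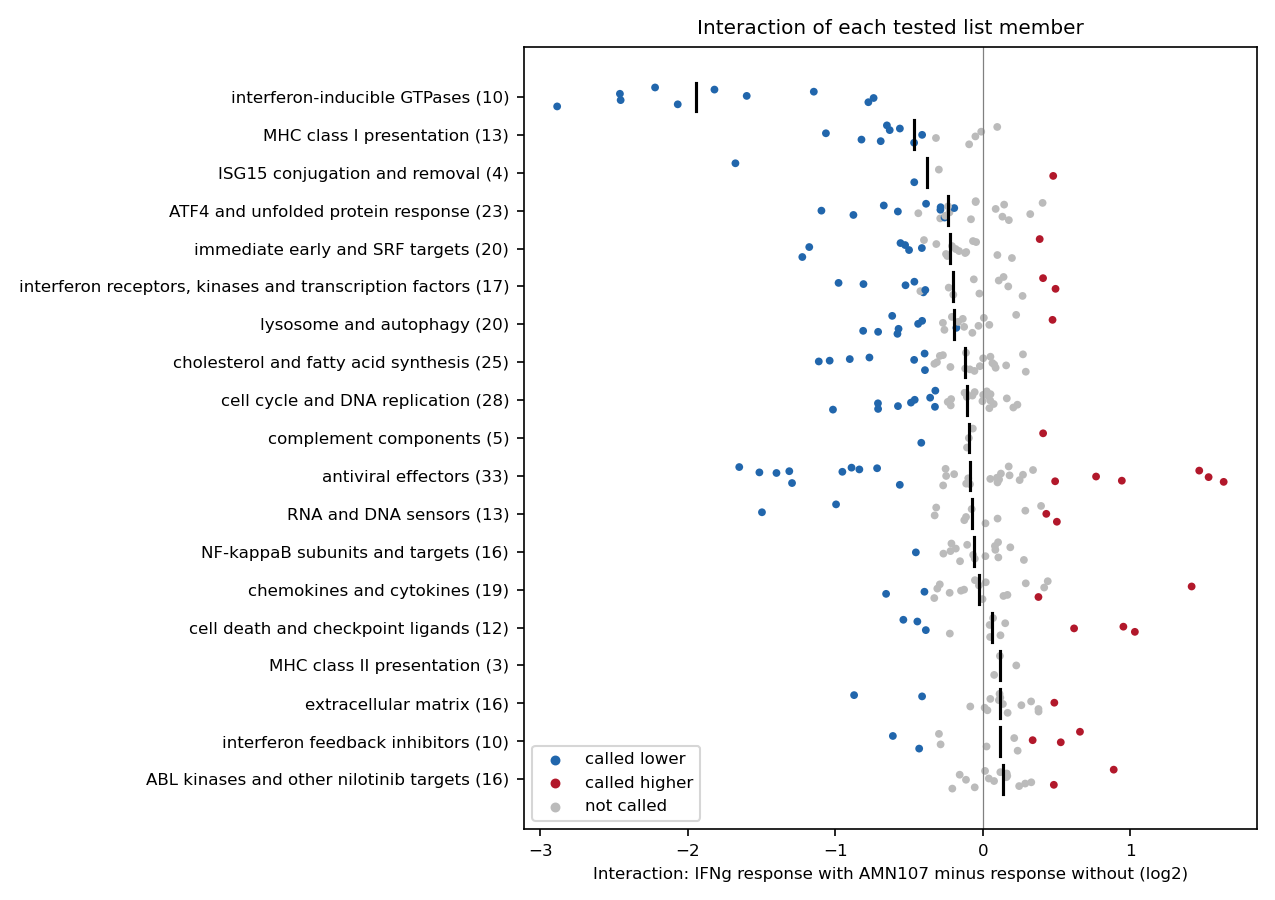
Interaction (log2) of each tested member of 19 gene lists, with the number tested in brackets, blue and red for members called lower and higher, and a black line at the list's median. All 10 GTPases lie below 0, while antiviral effectors, chemokines and death genes spread to both sides.

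Of 16 tested genes of the ABL family and of other nilotinib targets and their partners, 0 were called lower and 2 (12.5%) higher (median 0.14). A call was made for 12.9% of all genes, lower for 9.32% and higher for 3.63%. Abl1 had an interaction of 0.25 that was not called (95% interval 0.03 to 0.47). Abl2 gave 0.48 on its brightest probe set, -0.90 on another and -0.038 as the mean over probe sets, so no direction is given for it. Pdgfrb, a receptor for platelet-derived growth factor, gave 39.1 and 41.4 with AMN107-IFNg, 28.4 and 40.2 with AMN107, 65.0 and 48.1 with IFNg and 101 and 90.4 with DMSO, with an interaction of 0.89 and a baseline effect of -1.29, and its other probe set gave -0.08. NF-kappaB subunits and targets had 1 of 16 (6.25%) lower (Ptgs2, the inducible cyclooxygenase, -0.45) and 0 higher, and of 3 tested MHC class II genes none was called (0.08 to 0.23). Extracellular matrix genes had 2 of 16 (12.5%) lower and 1 (6.25%) higher, against 9.32% and 3.63% of all genes. Complement components had 1 of 5 (20%) each way (C1ra and C2), and RNA and DNA sensors 2 of 13 (15.4%) each way. The C1ra call was lost under 13 settings, among them every fit without 1 array except the one without IFNg replicate 2, and the C2 call under 10, among them every such fit except the one without AMN107 replicate 2 (adjusted p from 0.0892 to 0.189 for C1ra and from 0.0507 to 0.155 for C2). Another C2 probe set gave 0.00. The Ptgs2 call was lost without AMN107-IFNg replicate 1, AMN107 replicate 2 or DMSO replicate 1 (adjusted p from 0.0583 to 0.0622). The matrix members were Thbs1 (-0.87), Sparc (-0.41) and Col6a1 (0.48). The Sparc call was lost in every fit without 1 array except those without IFNg replicate 2 or DMSO replicate 2, and the Col6a1 call without AMN107-IFNg replicate 2, AMN107 replicate 2, IFNg replicate 2 or DMSO replicate 1 (adjusted p from 0.0523 to 0.114 for Sparc and from 0.0614 to 0.113 for Col6a1). Of 4 tested genes for ISG15 conjugation and removal, Usp18 and Herc6 were lower and Uba7 higher, but the mean over the probe sets of Herc6 gave 0.26, another Herc6 probe set was called at 0.67, and the interaction of Uba7 as such a mean was 0.04. No direction is given for either. The Herc6 call was lost in every fit without 1 array except those without AMN107 replicate 1 or IFNg replicate 2, and the Uba7 call without AMN107-IFNg replicate 2, AMN107 replicate 2, IFNg replicate 2 or either DMSO replicate (adjusted p from 0.0553 to 0.209 for Herc6 and from 0.0597 to 0.162 for Uba7).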

How the data were processed

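Expression in mouse embryonic fibroblasts was read on 12 Affymetrix arrays, of which 8 entered the fit. The deposited values are linear intensity per probe set, made by the authors with MAS5, per the submitters' processing notes, whose version and scaling are not given in the sources used here; no detection calls were used. Of 45101 probe sets, 34945 paired with 1 gene in the platform's annotation, 932 with several and 9160 with none, and 64 were controls. Probe sets above the array median on at least 2 of the 8 arrays were kept (20951), and the brightest per gene was tested (12071 genes). Log2(signal + 8.75) was fitted with limma 3.58.1 in R 4.3.3 (1 mean per group, eBayes with trend, 4 residual degrees of freedom), with Benjamini-Hochberg adjustment over all genes, and the procedure was tested on simulated data. The pseudocount was the mean over arrays of the 25th percentile, and it understates changes of dim genes. Counting depth does not apply to arrays, and 2 arrays per group limit the precision. The AMN107-IFNa arrays entered 2 alternatives only, and the IFNa arrays only 1 of these, the fit on all 12 arrays.

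The members and lists were chosen with earlier results of these data known. Named genes were the 12 most negative and 12 most positive called interactions whose single-array differences did not overlap, up to 3 called members per list with the largest size, and a panel of 28 pathway genes, of which 1 is not reported here. The remaining genes with values in the text were named after their values were seen, to complete a count or to show a form. Promoter sequences are from RefSeq. Alternatives covered the pseudocount, filter, scaling, probe set summary, arrays in the fit, spread estimate, array weights, a replicate block and leaving out each array.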

Additional observations from a re-analysis of the deposited data

Results flagged for a closer look

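Each gene named here had a response to IFNg that differed between AMN107-treated and untreated cells in the limma test of the difference itself, and the values are interactions (log2). Among GTPases these were Gbp2 at -2.89, Igtp at -2.46, Gbp7 at -2.46, Gbp2b at -2.24, Irgm2 at -2.22, Gbp3 at -2.07, Irgm1 at -1.82 and Iigp1 at -1.15. Among other interferon-induced genes they were Ifi202b at -1.73, Usp18 at -1.68, Xaf1 at -1.65, Mndal at -1.5 and Psmb9 at -1.06. The genes with a larger response under AMN107 were Ifi44l at 1.63, Mx1 at 1.53, Phf11d at 1.47, Cxcl9 at 1.42, Gm11772 at 1.12, Crem at 1.07 and Casp4 at 1.03. Of these, Ifi44l, Mx1 and Gm11772 would not have entered the test without the AMN107-IFNg arrays, where they were highest. Genes outside the interferon pathway were Sntb2 at -1.88, Klf6 at -1.82, Srp72 at -1.66, Ankrd1 at -1.22, Ier2 at -1.18, Msmo1 at -1.11, Hsp90b1 at -1.09, Mvd at -1.04 and Aurka at -1.02. The baseline and response without AMN107 of all these genes use the DMSO arrays, whose control probe sets differed from those of the other arrays.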

How the results depend on the processing

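Scaling moved the balance of calls most: quantile normalization gave 997 genes called higher and a common trimmed mean 880, against 438, and both shifted the median of all genes to 0.07. The fit on all 12 arrays, which takes in the wider spread of the IFNa arrays (replicate SD 0.402, against 0.119 to 0.144 in the groups used), called 127 genes, 110 lower and 17 higher, of which 42 had an absolute log2 of at least 1. That spread includes IFNa replicate 2, with a GAPDH 5'/3' ratio of 0.0252; with 10 arrays, leaving out both IFNa arrays, 1584 genes were called. Leaving out 1 array gave 887 to 1639 called genes, 724 to 1209 lower and 163 to 469 higher, and a median of -0.37 to -0.19 over the induced genes. The total was 887 without AMN107-IFNg replicate 2, 1039 and 992 without AMN107 replicate 1 and 2, and 989 without DMSO replicate 1. The higher calls were 248 without AMN107-IFNg replicate 1. Of 70 named genes called, 54 were called under every setting but the 12-array fit, which lost 40. The mean over probe sets turned Herc6 to 0.26, Ptpn11 to -0.26 and Abl2 to -0.038. The cause of these changes was not tested. All 10 GTPases were called lower under all 22 settings.

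Replicate numbers did not pair the arrays: deviations of same-numbered arrays correlated at -0.147 to 0.0883 over 6 pairs of groups. A replicate block gave 1381 called genes, 1027 lower and 354 higher.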
